A study of Mus musculus with 250 samples.

Results

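Cytosolic ribosomal protein genes encode the protein part of the ribosomes that translate nuclear messages. They were taken from the table of 27003 gene symbols by name: Rpl or Rps followed by a number and an optional suffix, plus Rpsa, Rplp0, Rplp1 and Rplp2. This gave 87 members. GENCODE M21 (GRCm38) annotates 82 of them as protein coding and 5 as pseudogenes (Rps3a2, Rps3a3, Rps4l, Rpl32l and Rpl6l). Of the 82, 31 are standard small subunit proteins, 46 are standard large subunit proteins and 5 are paralogs of another member (Rpl7l1, Rpl22l1, Rpl36al, Rpl39l and Rps27l). Fau, which encodes a further ribosomal protein fused to a ubiquitin-like domain, does not carry such a name and is reported apart. The paralogs Rpl3l and Rpl10l were not analysed here. Every member had at least 1 read, and 75 were detected in no fewer than 90% of the 250 cells.

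The cells were epidermal cells of mouse tail skin, all of genotype Lrig1CreER/Rosa-TdTomato. In this model a Cre enzyme made by Lrig1-expressing cells switches on a red reporter, so that the cells and their progeny are labelled; Lrig1 is a gene of upper hair follicle stem cells. All cells carried the surface protein Sca1, on which they were sorted, and all have a time label of 8 weeks, which the labels extend with an abbreviation they do not spell out. Control cells came from a region that the labels call non-memory (28 cells in batch 1 and 56 in batch 2), distal cells from the distal memory region (32 and 49) and wound bed cells from the wound bed (30 and 55). The labels give no animal, sex or strain. Each region therefore counts as 1 sample, no test between regions was possible, and values are given side by side for the batches. Each batch of a region was 1 plate, so that a region difference within a batch and a plate difference cannot be told apart.

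Median depth per plate ran from 31686 to 93690.5 reads on genes, and 4 distal cells of batch 1 with over 500000 reads each held 72.8% of their plate's reads. Defining markers of epidermis were present: the 8 basal markers (Krt5, Krt14 and others) summed to 3410 to 7871 counts per 1000000 reads (CPM) in a plate, and the 10 suprabasal markers (Krt1, Krt10 and others) to 12761 to 37283 CPM. The 9 upper hair follicle markers summed to 13045 and 35336 CPM in control by batch, to 3022 and 8405 CPM for distal cells, and to 2414 and 14618 CPM for wound bed cells. The sebocyte list (3 genes in the table) summed to 389 to 2428 CPM. Immune, fibroblast, melanocyte and endothelial lists summed to at most 71.9 CPM in any plate, with Cd3e, Trdc, Cd207, Col1a2, Pdgfra and Cdh5 at 0 in all cells.

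Ribosomal protein genes are among the most highly transcribed genes of a cell, because a ribosome needs 1 copy of nearly every protein. In vertebrates most of their messages begin with a C followed by a run of pyrimidines, the 5′ terminal oligopyrimidine (TOP) motif. This motif lets the mTORC1 pathway, through the binding protein Larp1, turn the translation of the whole set up or down together. Several members also act outside the ribosome: Rpl5 and Rpl11 bind Mdm2 when ribosome assembly fails, and this raises p53.

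Sequences at annotated starts were read from RefSeq (GRCm38.p6) for 63 members with a window; the others had none in the table. The following windows of 30 bases run 5′ to 3′ on the gene's strand from 10 bases before the annotated start. They are shown for Rps27 and Rps12, which tracked the rest of the set closely from cell to cell, for Rpl38, whose run begins exactly at the start, and for Rpl5, Rpl23 and Rpl39, abundant members that tracked the set weakly. Capitals mark the longest run of C and T that begins with C within 10 bases of the start, where there is one of at least 5 bases. The windows shown do not stand for the whole set: Rps16, which also tracked it closely, had no such run.
Rps27 (chr3:90213629-90213658, minus strand): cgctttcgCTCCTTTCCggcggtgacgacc
Rps12 (chr10:23787190-23787219, minus strand): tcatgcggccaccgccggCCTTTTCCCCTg
Rpl38 (chr11:114668570-114668599, plus strand): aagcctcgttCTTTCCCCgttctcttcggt
Rpl5 (chr5:107900518-107900547, plus strand): cgtcgcttgcgtgctggtggtgctacatac
Rpl23 (chr11:97782420-97782449, minus strand): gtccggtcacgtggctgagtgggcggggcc
Rpl39 (chrX:37085203-37085232, minus strand): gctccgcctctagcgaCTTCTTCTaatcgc

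A C followed by at least 4 pyrimidines stood exactly at the annotated start of 13 of the 62 protein-coding members with a window (20.97%), against 3.01% of all 27025 genes with a window. With the run allowed to begin within 10 bases of the start, the shares were 59.7% and 34.4%. Only the gene's own strand was searched. Annotated starts can lie several bases away from the start a cell uses, so no match says only that these letters are not at that place.

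The other sequences that matter are those of Rps3a1, a small subunit protein gene (chr3:86137940-86142702, minus strand, GRCm38), and of 2 processed pseudogene copies of it, Rps3a3 (chr13:108670603-108671397, plus strand) and Rps3a2 (chr14:88123017-88123808, minus strand). Rps3a3 was the only member that met the size rule between regions. Bases 202 to 261, counted from the A of the start codon of Rps3a1, are shown. Among stretches of 60 scanned in steps of 3 bases, this is the first with the most differences in Rps3a3. Capitals mark the bases that differ from Rps3a1 (GENCODE M21 transcripts).
Rps3a1: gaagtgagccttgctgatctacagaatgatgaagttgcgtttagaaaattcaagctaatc
Rps3a3: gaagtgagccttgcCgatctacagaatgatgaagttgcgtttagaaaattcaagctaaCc
Rps3a2: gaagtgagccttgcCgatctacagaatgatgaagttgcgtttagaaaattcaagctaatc
Over the 795 coding bases Rps3a3 differs from Rps3a1 at 9, and Rps3a2 differs at 4 of 792. Reads that lie within this stretch and cover none of these bases do not tell the 3 rows apart. The transcript of Rps3a1 has 977 bases, against 795 for Rps3a3 and 792 for Rps3a2, so Rps3a1 also has bases outside the stretch compared.

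The summed ribosomal protein share of a cell was higher in the wound bed than in control in both batches over all cells, and close to equal in distal and control cells. Among cells of similar depth the first difference held in batch 2 and not in batch 1. The share is the reads on all 87 members as a percent of all gene reads of a cell. Over all 250 cells it ran from 0.0203% to 23.96%, with a median of 7.92%. In control the plate medians were 5.60% in batch 1 and 7.57% in batch 2. In the distal region they were 5.67% and 7.49%, and in the wound bed 8.22% and 8.96%. Both wound bed plates were thus above all 4 other plates, while single cells overlapped widely. The middle 50% of cells spanned 3.73% to 10.5% and 5.76% to 10.9% in control, 4.07% to 9.35% and 5.61% to 10.8% for distal and 6.16% to 12.4% and 7.20% to 10.3% for wound bed cells.

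**Figure D1:**
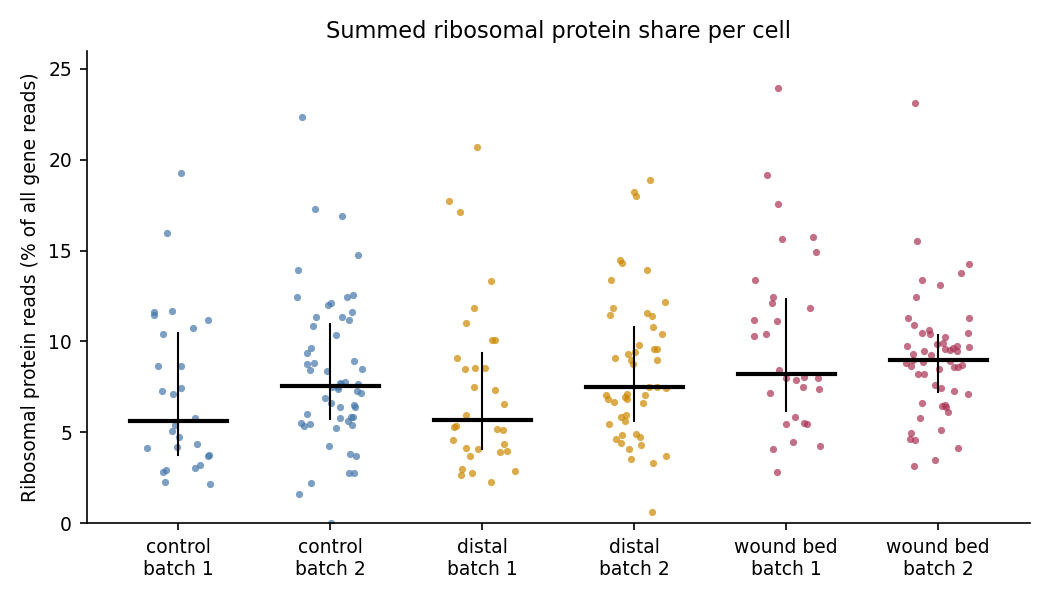
Ribosomal protein reads as a percent of all gene reads, 1 point per cell, for the 6 plates; the thick bar is the plate's median and the thin line the middle 50% of its cells. The wound bed medians (8.22% and 8.96%) lie above the control medians (5.60% and 7.57%) and the distal medians (5.67% and 7.49%), and the cells of all plates overlap.

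As a ratio of plate medians, the wound bed was 1.47 times control in batch 1 and 1.18 times in batch 2. Against the distal region it was 1.45 times and 1.20 times. The distal region was 1.01 times control in batch 1 and 0.989 times in batch 2. Over all reads of a plate added together, the share was 5.33% and 7.20% for control, 4.45% and 6.49% for distal and 9.20% and 8.45% for wound bed cells. The widest Wilson 95% interval of these pooled shares was 9.16% to 9.24%, in wound bed batch 1, and it covers counting error only. With mitochondrial transcripts left out of the denominator, the medians were 8.39% and 10.3% for control, 9.58% and 10.9% for distal and 13.6% and 12.5% for wound bed cells. Markers of cell state moved with region too: upper hair follicle markers were lower in both wound bed and both distal plates than in the control plate of the same batch, suprabasal markers were higher in both wound bed plates, and their part in the share was not tested. Mitochondrial transcripts themselves took a median of 23.995% and 21.7% of reads in control, 39.2% and 28.7% for distal and 34.99% and 25.4% for wound bed cells.

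Cells at the ends of the range were few. A share above 15% occurred in 5 of 84 control cells (2 and 3 by batch), 6 distal cells (3 and 3) and 7 wound bed cells (5 and 2). A share under 2% occurred in 3 cells, 2 in control batch 2 and 1 in distal batch 2. In all 3 the predicted gene Gm10800 held the most reads, at 69.4%, 54.7% and 59.9% of non-mitochondrial reads. The lowest cell had reads on 7 members and a mitochondrial share of 0.00353%, against a plate median of 80 members. No other cell of any plate had reads on fewer than 63 members.

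Cells sequenced more deeply had a lower ribosomal protein share in every plate. Across the cells of a plate, Spearman's rho between share and reads was -0.41 in 28 cells and -0.43 in 56 cells of control, -0.76 in 32 cells and -0.45 in 49 cells of the distal region, and -0.40 in 30 cells and -0.12 in 55 cells of the wound bed. These are descriptions, and the cells of a plate share a library preparation. In control batch 1 the 9 least deep cells had a median share of 10.7% and the 9 deepest 4.35%. In distal batch 1 the 10 least deep cells had 10.1% and the 10 deepest 4.06%, and in wound bed batch 1 the values for 10 and 10 cells were 13.03% and 7.74%. In batch 2 control had 8.64% and 6.76% (18 cells each), distal 11.2% and 6.86% (16 each) and wound bed 9.23% and 9.08% (18 each). The difference was small in wound bed batch 2 and larger in the other 5 plates. With every cell thinned to 10000 reads (12 shallower cells left out), rho ran from -0.76 to -0.19.

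**Figure D2:**
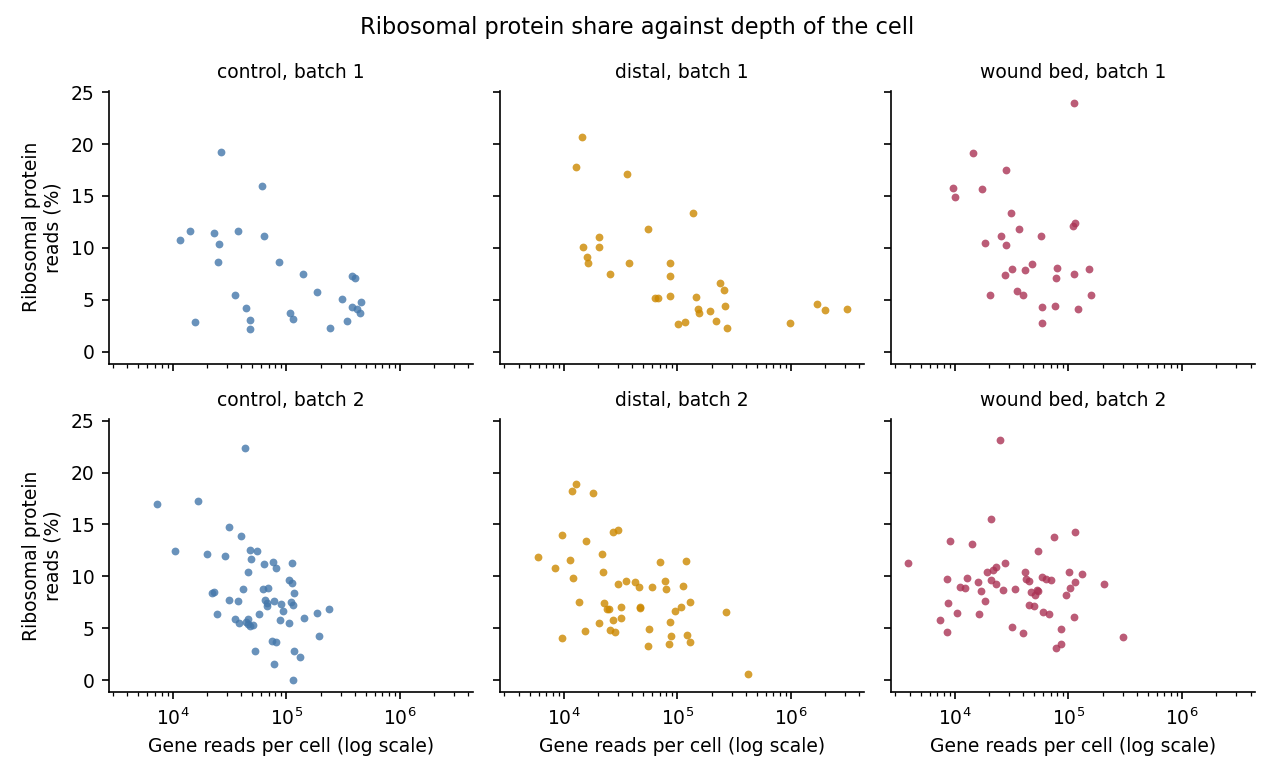
Ribosomal protein reads as a percent of all gene reads (vertical axis) against gene reads per cell (horizontal axis, log scale), 1 point per cell and 1 panel per plate. Shares fall with depth in each panel, with rho from -0.76 in distal batch 1 to -0.12 in wound bed batch 2.

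The wound bed cells were also less deep than control cells, with median reads of 40809.5 and 41206 against 74378.5 and 63286.5, so depth moved with the region difference. Among cells of 20000 to 100000 reads, a window chosen after seeing the data, the median share in batch 1 was 9.52% in 12 control cells, 8.51% in 11 distal cells and 7.92% in 18 wound bed cells. In batch 2 it was 7.65% in 39 control, 7.03% in 29 distal and 8.79% in 31 wound bed cells. In this window the wound bed was therefore below control in batch 1 (0.832 times) and above it in batch 2 (1.15 times). Among cells with at least 2000 detected genes the wound bed was above control in both batches, at 1.58 and 1.24 times, with 9 cells in each batch 1 plate.

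Cell state scores were related to the share to different degrees. Each score is the mean log2(CPM + 1) of a marker list in a cell, with CPM taken over reads that are neither mitochondrial nor ribosomal protein, and the share is taken here over non-mitochondrial reads. For the basal list rho ran from -0.15 to 0.15 over the 6 plates, and for the suprabasal list from -0.13 to 0.22. For the upper hair follicle list it was negative in all 6 plates, from -0.42 in control batch 1 to -0.03 in wound bed batch 1. In control batch 1 the 9 cells with the highest upper follicle score had a median share of 6.09% and the 9 with the lowest 12.6%, a larger gap than in any other plate. The score had a rho of 0.35 with reads in that plate, and with cells thinned to 10000 reads the values were 6.44% and 9.35%, with a rho of -0.26 in place of -0.42. For the 8 immediate early genes (Fos, Egr1 and others), of which up to 29 cells of a plate had no read, rho was negative in all 6 plates, from -0.32 and -0.28 in the wound bed plates to -0.05 in control batch 1. After thinning it ran from -0.26 to 0.23 and was negative in 3 plates. For the 12 cycling genes (Mki67, Top2a and others) rho ran from -0.23 to 0.00, and up to 24 cells of a plate had no read on any of them.

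For the nuclear transcripts Malat1, Neat1, Meg3, Kcnq1ot1 and Xist, rho was negative in all 6 plates, from -0.57 in distal batch 2 to -0.18 in control batch 2. Cells lowest for these transcripts had a higher median share than cells highest for them in every plate, taking 9, 18, 10, 16, 10 and 18 cells at each end. Control had 12.6% against 7.61% in batch 1 and 11.2% against 9.83% in batch 2. Distal had 15.4% against 9.39% and 14.4% against 8.92%, and wound bed 14.2% against 11.5% and 14.7% against 10.3%. In control batch 2 and wound bed batch 2, 23 and 29 cells had no read on any of the 5, so that the low end there was drawn from tied cells. The list itself summed to 707 and 872 CPM for control, 14086 and 8497 CPM for distal and 2873 and 1063 CPM for wound bed cells. Its score had a rho with reads of 0.59 in distal batch 1 and of -0.03 to 0.27 in the other plates. After thinning, the rho of score and share ran from -0.57 to -0.21. What part it has in the shares was not tested.

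Levels of the members covered a wide range. Levels are CPM of reads summed per plate and scaled by TMM (scaled CPM), and divided by the median length in kilobases of the gene's coding transcripts. Among the 8 highest, as the mean of the 6 plates, were Rpl39 (6271 scaled CPM per kb), Rpl23 (5576), Rpl30 (3703), Rpl5 (3545), Rps15a (2528), Rplp0 (2422) and Rps14 (2171). Rpl39 is a small protein that lines the exit tunnel of the ribosome, and Rplp0 is the base of the stalk that recruits elongation factors. With the union of all annotated exons as length, 4 of the 8 were still among the 8 highest. The stalk proteins Rplp1 and Rplp2 stood at 1940 and 633 scaled CPM per kb, and Rpsa, also known as the laminin receptor precursor, at 720. Rps27a, made as a fusion with ubiquitin, stood at 2140. Rps6, the target of S6 kinase, was at 340, and Rps19, the gene most often mutated in Diamond-Blackfan anaemia, at 1274. Rpl38, needed for normal patterning of the body axis, was at 287, and Rpl11 at 362.

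**Figure D3:**
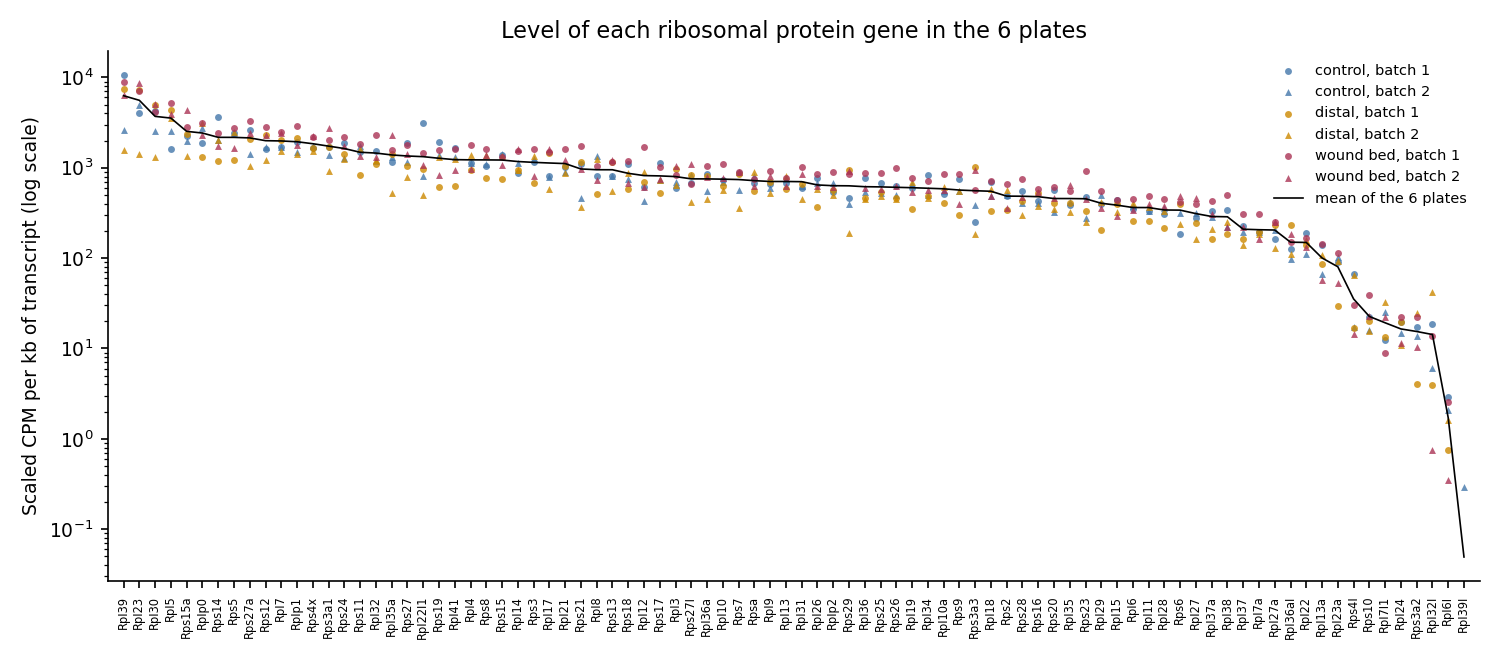
Scaled CPM per kb of transcript (log scale) of 86 of the 87 members, ordered by their mean over the 6 plates (black line); circles are batch 1, triangles batch 2, colours the regions, and levels of 0 are not drawn. Levels cover a wide range, with Rpl39 and Rpl23 at the top and Rps4l, Rps10, Rpl7l1, Rpl24, Rps3a2, Rpl32l, Rpl6l and Rpl39l at the bottom.

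The lowest 5 were Rpl39l (1 read in 1 control cell), Rpl6l (1.71 scaled CPM per kb), Rpl32l (14.3), Rps3a2 (15.4) and Rpl24 (16.4). Of these, Rpl24 is a standard large subunit protein. It shares 82.2% of its 31-base words with other genes, and 47.8% of the reads on Rpl24 and on the non-member rows that share at least 100 such words with it lay on those other rows. The standard members Rps10, Rpl23a and Rpl13a were also low, shared 27.8%, 83.2% and 45.5% of their 31-base words with other genes, and were grouped after seeing their values. Rps10 stood at 22.6 scaled CPM per kb, with 69.8% of such reads on other rows. Rpl23a stood at 80.2 with 70.8%, and Rpl13a, a protein with a role in silencing inflammatory messages, at 100.3 with 30.6%. Over all members a median of 44.5% of 31-base words were shared with another gene, from 1.95% to 94.1%, so levels of single members are uncertain where the counting could split reads among copies. Rpl36, the member with 94.1%, had 5397 reads. Rpl24 and Rps10 had 277 and 347 reads, and the other rows that share words with them held 254 and 803. Whether sharing accounts for the low levels was not tested.

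Members differed in how constant their place in the set was from plate to plate. For the 79 members with at least 50 reads in every plate, the log2 scaled CPM was centred on the plate's median member, and the SD was taken over the 6 plates. The SD was largest for Rps3a3 (0.96), Rpl39 (0.93), Rpl23 (0.82), Rps29 (0.78) and Rpl22l1 (0.75), and smallest for Rpl10 (0.049). Rpl39 stood at 6529 and 1603 scaled CPM in control, 4504 and 956 for distal and 5489 and 3946 for wound bed cells. It was lower in batch 2 than in batch 1 in all 3 regions. Rpl23 stood at 2787 and 3451 for control, 5111 and 986 for distal and 4902 and 6065 for wound bed cells. Distal batch 2 was lowest for both genes, and for Rps29, at 74.6 against 156 to 372 scaled CPM in the other plates.

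Most members rose and fell together from cell to cell. For each of the 82 members detected in no less than 25% of every plate's cells, tracking is Spearman's rho between its share and the summed share of all other members, within a plate. The median over plates was above 0.5 for 70 of the 82, and 75 had a positive rho in all 6 plates. The middle member had 0.69. By plate the middle member lay between 0.69 and 0.71 in 5 plates and at 0.54 in wound bed batch 2. These shares have a common denominator and the cells a common library, so the values are descriptions. The 5 that tracked the set best were Rps12 (0.87), Rpl32 (0.85), Rps16 (0.84), Rps27 (0.83) and Rplp1 (0.83). The 5 that tracked it least were Rpl39 (-0.13), Rpl22l1 (-0.11), Rpl24 (0.14), Rps3a3 (0.16) and Rps10 (0.19). Rpl24 and Rps10 had reads in 38% and 53.2% of cells, while Rpl39 was the most abundant member per kb.

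Members with low tracking included 5 with many reads: Rpl39, Rpl22l1, Rpl5 (0.29), Rpl30 (0.31) and Rpl23 (0.38). This group of 5 was drawn up after the values were seen. Rpl5 had the most reads of all members (124869), followed by Rpl23 (98185) and Rpl39 (91489). In batch 1 the share of these 5 was higher in the deepest than in the least deep cells, while that of the rest was lower. From the least deep to the deepest cells (the same cells as above), it went from 0.902% to 1.13% in control, from 0.962% to 1.25% for distal and from 1.09% to 2.06% for wound bed cells. The other 82 members together went from 9.59% to 3.38%, from 9.46% to 2.71% and from 11.7% to 4.67% in the same cells. In batch 2 the 5 went from 1.32% to 1.31% in control, from 1.13% to 0.739% for distal and from 2.39% to 2.31% for wound bed cells. The others went from 8.16% to 5.51%, from 9.50% to 6.05% and from 6.61% to 6.30%. The 5 genes took 11.04% of ribosomal protein reads in the median cell of distal batch 2 and 27.6% in wound bed batch 2.

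**Figure D4:**
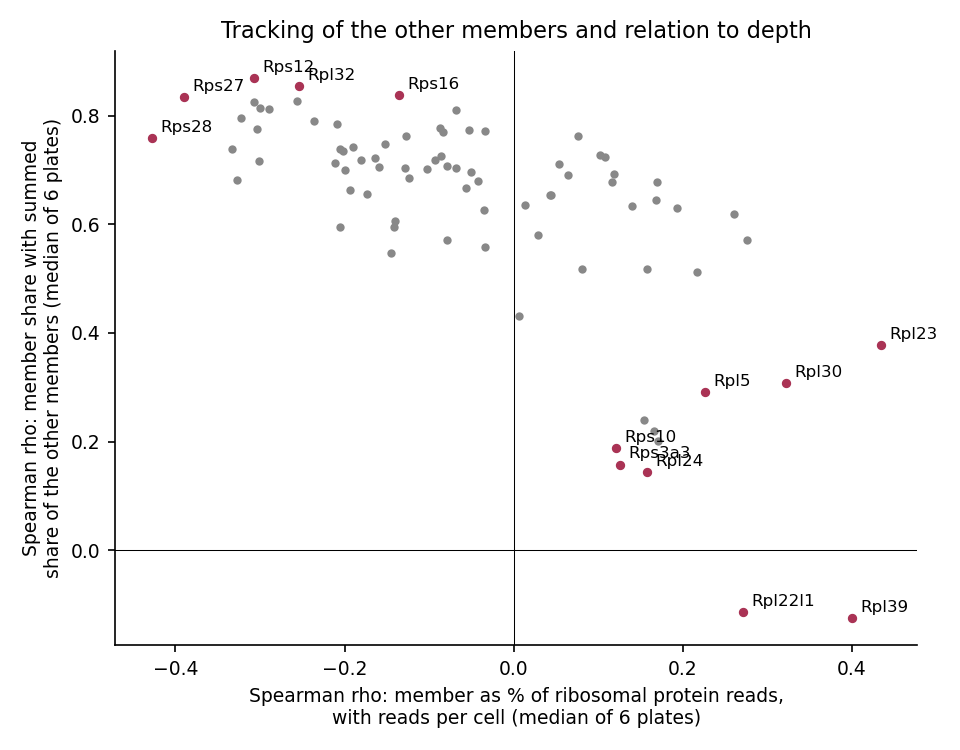
Each of the 82 members by its tracking of the other members (vertical axis, Spearman's rho, median of 6 plates) and by the rho of its part of ribosomal protein reads with the reads of the cell (horizontal axis). Rpl39, Rpl22l1, Rpl5, Rpl30 and Rpl23 lie low and to the right; Rps27, Rps12 and Rps28 lie high and to the left.

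Within the ribosomal protein reads, the part of Rpl23 rose with depth in all 6 plates (rho 0.05 to 0.72), as did that of Rpl39 (0.04 to 0.61). The part of Rps27 fell in all 6 (-0.69 to -0.34). That of Rps28, named after its values were seen, fell in 5 (-0.73 to -0.26) and had a rho of 0.04 in distal batch 2. Of the 82 members, 32 had a positive and 50 a negative median rho. Of the 82, 30 hold a small nucleolar RNA gene within their borders, among them Rpl39, Rpl5, Rpl30 and Rpl23. The median tracking was 0.70 for these 30 and 0.69 for the other 52. By promoter, it was 0.68 for the 13 members with a pyrimidine run at the start, 0.70 for 23 with a run within 10 bases and 0.71 for 24 without.

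Between wound bed and control, 46 of 86 members were higher in the wound bed in both batches, mostly by a small amount, and 1 met the size rule. A gene met it when its log2 ratio of scaled CPM + 1 was at least 1 in size with the same sign in both batches. Of the 86 members with reads in at least 10% of cells (Rpl39l was not), Rps3a3 met it as higher and none as lower, where 7.83% and 8.24% of all 5776 genes considered did so. Higher in both batches without a limit on size were 46 of the 86 members (27.3% of all genes), and 9 were lower in both (27.4%). Members are abundant, so genes with reads in at least 50% of cells are a closer background: of 816 such genes 3.68% met the size rule as higher and 4.66% as lower, 30.8% were higher in both batches and 27.5% lower, against 46 and 5 of 81 members. With every cell weighted equally, 43 members were higher in both batches and 9 lower (26.5% and 26.9% of all genes), and 1, Rps29, met the size rule (7.55% and 8.62% of all genes as higher and lower). The middle member had log2 ratios of 0.37 in batch 1 and 0.19 in batch 2, and the middle gene of all had 0.03 and -0.03. Among the standard small subunit proteins 19 of 31 were higher in both batches and 3 lower; among those of the large subunit, 25 of 46 were higher and 2 lower. The counts depended on depth. In the window of 20000 to 100000 reads, 33 of 86 members were higher in both batches and 30 lower, against 33.5% and 23.3% of all genes in that window; the middle member was at -0.19 and 0.30 and the middle gene of all at 0.90 and -0.09. Among cells with at least 2000 genes, 30 were higher and 22 lower, against 25.7% and 27.1% of all genes.

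Rps3a3 stood at 201 and 305 scaled CPM in control, 808 and 146 for distal and 450 and 746 for wound bed cells. Its log2 ratios of wound bed to control were 1.16 and 1.29. The distal values lay on both sides of control. Weighting every cell equally gave 0.93 and 1.04, and thinning gave 0.99 and 1.32, both short of the limit in batch 1. The parent gene Rps3a1 stood at 1637 and 1343 for control, 1655 and 906 for distal and 1964 and 2665 for wound bed cells, with ratios of 0.26 and 0.99. Per kb, Rps3a3 was at 15.1% and 27.9% of Rps3a1 in control, 59.97% and 19.8% for distal and 28.2% and 34.4% for wound bed cells. The row had reads in 74% of cells. Given the sequences above, how far these reads come from Rps3a1 was not tested.

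Members just short of the limit were Rpl17 (0.91 and 1.03), Rps29 (0.85 and 1.20) and Rpl23 (0.81 and 0.81). Rps29, a small zinc-binding protein of the small subunit, stood at 182 and 156 scaled CPM in control and 330 and 361 in the wound bed, so that both wound bed plates were above both control plates. It passed the limit with total reads in place of TMM (1.24 and 1.09), with equal weight per cell (1.29 and 1.02) and after thinning (1.504 and 1.20). Rpl5 stood at 2332 and 3682 scaled CPM in control, 6326 and 5131 for distal and 7523 and 5625 for wound bed cells. All 4 plates of the memory region and wound bed were above both control plates. Its wound bed ratios were 1.69 and 0.61, and its distal ratios 1.44 and 0.48. Its partner Rpl11 had 0.54 and 0.23 in the wound bed and -0.37 and 0.15 in the distal region. Rps6 had 1.18 and 0.64, Rpl38 had 0.56 and 0.03, and Rps19 had -0.33 and -0.75 in the wound bed.

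**Figure D5:**
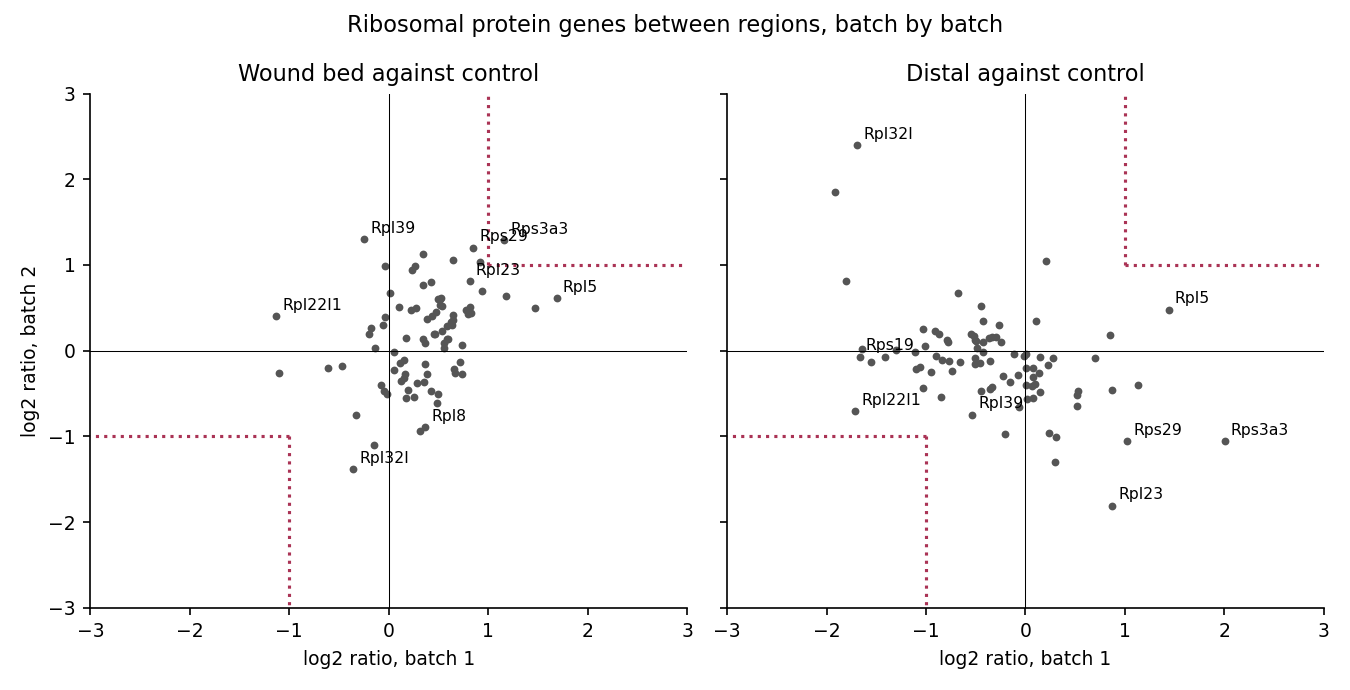
log2 ratio of scaled CPM + 1 in batch 1 (horizontal axis) and batch 2 (vertical axis) for 86 members, wound bed against control (left) and distal against control (right); dotted lines bound the size rule. Rps3a3 alone lies inside the upper right bounds on the left; on the right no member lies inside, and Rps3a3, Rps29 and Rpl23 are higher in batch 1 and lower in batch 2.

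Between distal and control, no member met the size rule, where 8.07% of 6356 genes were higher and 6.09% lower. In the plate sums 31 of 86 members were lower in both batches (23.9% of all genes) and 4 higher (26.7%). The middle member had -0.36 and -0.12, and the middle gene of all 0.23 and -0.07. Among genes with reads in at least 50% of cells the share that was lower was nearer to that of the members: 31.5% of 929 genes were lower in both batches and 18.1% higher, against 30 and 3 of 81 members, and 1.08% and 3.44% met the size rule as higher and lower. With every cell weighted equally, and no TMM scaling, 10 members were lower and 26 higher (21.1% and 30.2% of all genes). The size rule was then met by 9.28% of all genes as higher and 5.1% as lower. The middle member was then at 0.11 and 0.08, and the middle gene at 0.28 and 0.07. Thinning gave 14 lower and 25 higher (24% and 26.7% of all genes). Plate sums without cells over 500000 reads gave 36 lower and 6 higher (26.3% and 24.9%). The direction thus differed between settings, and the cause was not tested. The nearest to the limit were Rpl22l1 (-1.71 and -0.70), Rps27 (-0.85 and -0.54) and Rpl39 (-0.54 and -0.75). The batches differed in size or in sign for many: Rps19 had -1.67 and -0.07, Rps14 had -1.64 and 0.02, and Rpl23 had 0.87 and -1.81.

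Between wound bed and distal, no member met the size rule (5.28% of 6285 genes higher and 9.59% lower). Higher in both batches were 44 of 86 members (21.4% of all genes) and lower in both 1, Rpl7l1 (27.4% of all genes). The middle member had 0.71 and 0.30, and the middle gene of all -0.25 and 0.02. Among 890 genes with reads in at least 50% of cells, 28.2% were higher in both batches and 16% lower, against 42 and 0 of 80 members, and 2.92% and 2.58% met the size rule. With every cell weighted equally, 37 members were higher and 4 lower (22.7% and 29.8% of all genes), none met the size rule (5.22% and 9.44%), and the middle member was at 0.36 and -0.02. The nearest to the limit was Rps23 (1.45 and 0.85), a protein of the decoding centre, followed by Rps27 (0.80 and 0.84) and Rpl27 (0.72 and 1.496). These counts, too, depended on depth. Among cells of 20000 to 100000 reads, 29 of 85 members were higher and 28 lower (30.3% and 23.7% of all genes). The middle member there was at -0.21 and 0.44, and the middle gene of all at 0.52 and -0.11. Among cells with at least 2000 genes, 32 members were higher and 3 lower (19.9% and 31.6% of all genes). Each region's plates enter 2 of the 3 comparisons, so the counts are not independent of each other.

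Paralogs were below their parents in level per kb, except Rpl22l1. Per kb, Rpl22l1 was at 1326 scaled CPM and Rpl22, an RNA-binding protein known to hold down the Rpl22l1 message, at 149. The ratio of Rpl22l1 to Rpl22 was 1676% and 742% for control, 696% and 317% for distal and 862% and 817% for wound bed cells. Rpl22l1 was thus the higher per kb in every plate. The size of these ratios depends on the lengths used, 538.5 bases for Rpl22l1 and 2048 for Rpl22. As unions of all annotated exons the lengths are 1989 and 2911 bases, which lie closer together. Rpl22l1 itself stood at 1700 and 440 scaled CPM in control, 518 and 270 for distal and 775 and 584 for wound bed cells. Control batch 1 stood apart as the highest plate. Rps27l, known as a p53 target, was at 55.8% of Rps27 per kb, from 35.96% in control batch 1 to 80.2% in distal batch 1. Rpl36al was at 19.9% of Rpl36a, and Rpl7l1 and Rps4l were at 0.972% and 1.91% of Rpl7 and Rps4x. Rpl39l, known from the testis, had a single read against 91489 of Rpl39. In 5 plates it had none, which allows at most 0.281 to 1.71 CPM at 3 counts per plate. Rpl3 and Rpl10, whose paralogs were not analysed here, stood at 798 and 748 scaled CPM per kb.

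Other genes of translation gave a mixed picture. Fau stood at 386 and 372 scaled CPM in control, 229 and 357 for distal and 523 and 401 for wound bed cells, with wound bed ratios of 0.44 and 0.11. Of 24 translation factors and other TOP messages, none met the size rule between wound bed and control, and 10 were higher and 6 lower in both batches (27.3% and 27.4% of all genes). The eIF3 subunit genes Eif3m (-1.12 and -1.97) and Eif3a (-2.88 and -1.07) met it as lower in the distal region than in control, 2 of 24 against 6.09% of all genes, which is near that background. Of 81 mitochondrial ribosomal protein genes, 69 were considered between wound bed and control; Mrpl36 met the size rule as higher (1.05 and 1.05) and 5 as lower, led by Mrpl4 (-1.97 and -2.58) and Mrps7 (-1.45 and -2.50). In both batches 17 of the 69 were higher and 16 lower, with medians of 0.25 and -0.11. Over all genes, 7.83% and 8.24% met the size rule as higher and lower, and 27.3% and 27.4% were higher and lower in both batches.

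Among 18 considered genes of ribosome biogenesis, Rrn3, a factor that brings RNA polymerase I to ribosomal DNA, was higher in the wound bed (2.04 and 2.28) and in the distal region (2.98 and 1.99) than in control. Wdr12 was also higher in the wound bed than in control (1.97 and 1.07), and Ubtf, the upstream binding factor of ribosomal DNA, was lower (-3.13 and -1.51). Between wound bed and control, 2 of the 18 thus met the size rule as higher and 1 as lower, against 7.83% and 8.24% of all genes. Between distal and control 1 of 18 met it as higher, against 8.07% of all genes. Of the regulators of TOP translation, Larp1 met the rule as higher in the wound bed than in the distal region (1.63 and 1.16), and Eif4ebp2 as higher in the distal region than in control (3.11 and 1.70). Larp1 was 1 of 10 considered genes, against 5.28% of all genes, and Eif4ebp2 was 1 of 8, against 8.07%. Of 6 considered genes of the response to ribosomal stress, Ccng1 was higher in the wound bed than in control (1.39 and 1.57), and Trp53 (-1.08 and -1.48) and Phlda3 (-5.69 and -2.70) were lower. That is 1 of 6 as higher and 2 of 6 as lower, against 7.83% and 8.24% of all genes. Counts from lists this small describe single genes and not a pathway.

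The genes whose share was most like the summed share of the members included genes of translation and copies of members: Fau, Rack1 and the predicted genes Gm4149, Gm10076 and Gm8730, which share sequence with a member, were among the first 10. Likeness is the mean over 6 plates of Spearman's rho, over 361 non-member genes detected in no less than 50% of every plate's cells. Among the 10 most like were Mif (0.59), Fau (0.59), Rack1 (0.58), Ppia (0.58), Gm4149 (0.58), Gm10076 (0.57), Gm9843 (0.55), Cox4i1 (0.54) and Gm8730 (0.54). Gm4149, Gm10076 and Gm8730 share 31-base words with Rpl37a, Rpl41 and Rplp0, in that order, so their reads may not be told apart from those of the members. Rack1 is a scaffold protein on the small subunit. The median likeness of all 361 was 0.09. For the 17 among them from the list of translation factors and other TOP messages it was 0.37. These ran from 0.59 for Fau, itself a ribosomal protein gene, to 0.04 for Tpt1.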

How the data were processed

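Per the labels' protocols, sorted cells were processed by Smart-Seq2, a full-length method without molecular identifiers. Tools listed in the submitters' processing notes, with no role or order, are R 4.0.3, Seurat and Salmon 0.13.1, and the genome build is mm10 (GRCm38). The authors deposited 1 table of whole-number read counts per gene symbol and cell (27003 by 250); how these counts were summed and rounded is not given in the sources used here. All columns matched a label, and no 2 cells were identical. No doublets were called and no cell was left out.

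Shares were computed per cell. For single members, counts were summed per plate, scaled by TMM (edgeR 4.0.16, R 4.3.3) and compared within each batch as log2(scaled CPM + 1); the calculation was tested on simulated data. Reads per cell ran from 3857 to 3119120. Shares of plates have Wilson 95% intervals. No test between regions was run. Genes were named by rule: those meeting the size rule, the 8 highest and 5 lowest members per kb, the 5 extremes of plate spread and tracking, paralogs and members with known roles. The members, lists and rules were chosen with earlier results of these data known. Alternatives included DESeq2 1.42.0 size factors, other denominators, filters and thinning to 10000 reads. Results that name some genes are not reported here.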

Additional observations from a re-analysis of the deposited data

How the results depend on the processing

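Limits are that shares fell with reads per cell, that reads have no molecular identifiers, and that each region is 1 sample. Regions were compared within each batch, and no test, paired or unpaired, was run. For the mean log2 ratio of median shares, wound bed against control was 0.40. It turned to -0.033 in cells of 20000 to 100000 reads, an alternative chosen after seeing the data, where batch 1 reversed. It kept its direction under all 11 other alternatives of the cells, members or denominator. Among these, leaving out cells over 500000 reads removed no control or wound bed cell, so it could not change the value. Wound bed against distal, 0.40, went to 0.71 with reads summed over the plate, 0.68 with at least 2000 genes per cell and 0.11 in the depth window; it was 0.25 without cells over 500000 reads, where batch 1 went from 1.45 to 1.18 times, and 0.26 as a mean over cells.

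Distal against control was 0.00 and took both signs: 0.14 over non-mitochondrial reads, 0.077 also without predicted genes, 0.055 as a mean over cells, -0.20 for summed reads, 0.15 without cells over 500000 reads (1.24 times in batch 1), -0.20 with at least 2000 genes (0.834 times in batch 1, and 0.836 for summed reads), -0.11 without cells dominated by 1 gene, 0.11 without the 5 members of highest share, -0.14 in the depth window, and 0.092 without Rpl39, Rpl22l1, Rpl5, Rpl30 and Rpl23. Members meeting the size rule between wound bed and control numbered 1. They numbered 2, both higher, with total reads (8.57% of all genes higher) or non-mitochondrial CPM (9.31%), 2 with at least 2000 genes (1 higher and 1 lower, against 11.1% and 10.6%), and 6 in the depth window (4 higher and 2 lower, against 13.8% and 8.66%); with equal cell weight or thinning the 1 was Rps29 in place of Rps3a3. Between distal and control there were 0, or 1 (Rps27l, lower, against 7.12%) in the depth window. Between wound bed and distal there were 0, or 4, all higher, with total reads (7.7% of all genes), 1 (Rpl27, higher, against 6.33%) with non-mitochondrial CPM, and 4 in the depth window (3 higher and 1 lower, against 12.8% and 9.23%). The middle tracking value fell from 0.69 to 0.62 after thinning, 4 of the 8 highest members stayed so with exon unions as length, and the promoter share went from 20.97% to 59.7% within 10 bases. The cause was not tested.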

Other observations

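Besides the members, 249 rows carry the name of a ribosomal protein pseudogene, and 214 of them had at least 1 read. Their reads made up 0.143% of all gene reads of control cells, 0.0912% of distal and 0.12% of wound bed cells. Set against members and pseudogene rows together, they took 2.45% and 2.08% for control, 1.35% and 3.04% for distal and 1.91% and 0.987% for wound bed cells. Adding them to the summed share left the wound bed at 1.46 and 1.18 times control.

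Among the 82 members compared with cell state, Rps3a1 and Rps29 had a positive rho with the suprabasal score in all 6 plates (0.08 to 0.31 and 0.01 to 0.26). Rpl6 and Rps25 had a negative one in all 6 (-0.20 to -0.07 and -0.16 to -0.01). These were picked after the values were seen and are descriptions only.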
